A study of Mus musculus with 14 samples.

Results

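The 40 genes described here build and run the machinery that divides chromosomes: the kinetochore, the mitotic spindle with its motors, and the midzone where the daughter cells part. They were chosen by gene symbol and function, out of 18194 genes with a probe set on the array, and each gene was read from its brightest probe set. Of the 40 genes, 39 passed the filter on low values, as did 14365 genes in all. Kif15, a spindle kinesin, did not pass, since its signal lay between 3.9 and 26.5 on every array, and it has no fold change here.

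Total RNA of cultured mouse cells was hybridised to Affymetrix arrays, and the values are linear intensities. Embryonic stem cells (ESC) are undifferentiated cells that can form all tissues of the embryo, and embryoid bodies (EB) are the aggregates in which they differentiate. Wild-type (WT) lines B21, J1 and R1 gave 3 ESC and 3 EB arrays, 1 of each per line. Lines labelled TKO gave 3 ESC arrays (7-4-1, Dutch and Ta1-12) and 5 EB arrays (these lines with 2-55-2 and 14-14-4, which have no ESC array here). TKO is not spelled out in the labels and was taken as the triple knockout of Rb1, Rbl1 and Rbl2, because the title of the series names that family. No agent or further allele is labelled in any of the 4 groups. The alleles and strain of each line, and the time in EB culture, were not given in the sources used here. Values are given in the order B21, J1, R1 for WT, 7-4-1, Dutch, Ta1-12 for TKO ESC and 2-55-2, 14-14-4, 7-4-1, Dutch, Ta1-12 for TKO EB.

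As background, the inner kinetochore sits on centromeric chromatin and carries the NDC80 complex, which grips the ends of microtubules, while the corona and the spindle checkpoint delay anaphase until every chromosome is attached. Kinesins and other microtubule binders shape the spindle and move chromosomes along it, and after anaphase the central spindle and the chromosomal passenger complex direct cytokinesis. Transcripts of most of these genes peak in G2 and M phase and are held low in resting cells by the DREAM complex, which contains the pocket proteins encoded by Rbl1 or Rbl2 and acts at promoter elements called CHR and CDE, whereas MYBL2 and FOXM1 promote their transcription in cycling cells.

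The labels were first set against the targeted genes and stage markers. Rbl1 intensity in WT lines was 356 to 694 at the ESC stage and 493 to 1089.6 at the EB stage. It lay between 15.9 and 38.3 in the TKO arrays of lines 2-55-2, 14-14-4 and 7-4-1, and at 250.3 (ESC) and 377 (EB) in Dutch. The arrays labelled TKO Ta1-12 had 493 (ESC) and 1096 (EB), at the WT level or just above it. Rb1 overlapped between WT (138 to 1018) and TKO (116 to 913), and Rbl2 in EB ran from 723 to 1727 for WT and from 297 to 1099 for TKO. Where these probes lie relative to any deleted part is not known here, and a probe outside that part checks nothing. Pou5f1, a defining marker of pluripotent cells, was 9879.8 to 12950.1 in all 6 ESC arrays and 32.8 to 55.2 in WT EB, but in TKO EB it was 1542, 6133, 147, 7410.3 and 17.1. Results for TKO EB are therefore given with all 5 arrays and without the line labelled Ta1-12, which was set apart for its Rbl1 signal when values of these genes were already known. Arrays of a group come from different lines, so the p-values reflect the spread between lines, and the median intensity of an array was 83.2 to 108.

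When WT cells went from ESC to EB, most genes of chromosome segregation fell. Between the 3 WT EB and the 3 WT ESC arrays, 25 of the 39 genes tested were lower in EB and 1, Zwint, was higher (by 1 of its 6 probe sets that passed the filter) at an adjusted p under 0.05 by limma, where 17.4% of all genes tested were lower and 26.2% higher. The falls reached about 4-fold, with a fold of 3.98 for Zwilch, 3.95 for Kntc1 and Kif18a and 3.94 for Nek2. The median log2 change over the 39 genes was -1.26, within a range of -1.99 to 0.67, and over all genes it was 0.13. For 37 of the 39 genes every WT EB array lay below every WT ESC array, as for 25.2% of all genes tested. In these bulk cultures, fewer dividing cells and less RNA of these genes per cell cannot be told apart. The count of calls depends on single arrays. Without WT EB B21, the array with the lowest values, 7 were lower and 1 was higher. There 1753 of all 14365 genes were lower and 2836 higher, and the median of the 39 genes was -0.91. Without WT ESC B21, J1 or R1 a total of 13, 11 and 13 were called. Among all genes 1852, 1872 and 2052 were then lower and 2860, 3034 and 3220 higher, in that order. The count of calls was 36 without TKO EB Ta1-12, since all groups share 1 estimate of the spread. In that fit 2671 of all genes were lower and 4105 higher. With quantile normalization of the arrays 31 were lower and 1 was higher, and among all genes 3027 were called higher and 3478 lower, in place of 3767 and 2493.

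In the cells labelled TKO the same step gave few calls among these genes. Between the 5 TKO EB and the 3 TKO ESC arrays, 0 of 39 genes were lower and 1, again Zwint, was higher by limma, against 14.9% of all genes lower and 20.8% higher. With the mean of all probe sets 2 were lower (Cenpp and Kif20b) and 0 higher, where 2358 of all 14365 genes were lower and 2699 higher. With array weights 4 were lower and 1 higher, where 3163 of all genes were lower and 3845 higher. At an unadjusted p under 0.05, 3 were lower (Cenpp, Cenpt and Kif20b) and 1 was higher. The 14.9% and 20.8% of all genes called above also pass this looser threshold. The median log2 change was -0.37 (range -1.09 to 0.93), with 0.08 over all genes. Only Cenpp and Cenpt had every TKO EB array below every TKO ESC array, as did 14.6% of all genes tested. The difference between the stage changes of both genotypes was itself tested: it was positive for all 39 genes (less fall in TKO), with a median of 0.95, yet 0 passed the adjusted threshold (adjusted p = 0.975 for each) and 2, Kntc1 and Kif14, had an unadjusted p under 0.05, as did 1.17% of all genes in this direction. Without TKO EB 7-4-1 or TKO ESC Dutch, 2 genes were called in the TKO stage comparison (Zwint higher, with Kif20b or Kif14 lower in that order), and without TKO EB Ta1-12, 1 was called for the difference of stage changes.

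**Figure D1:**
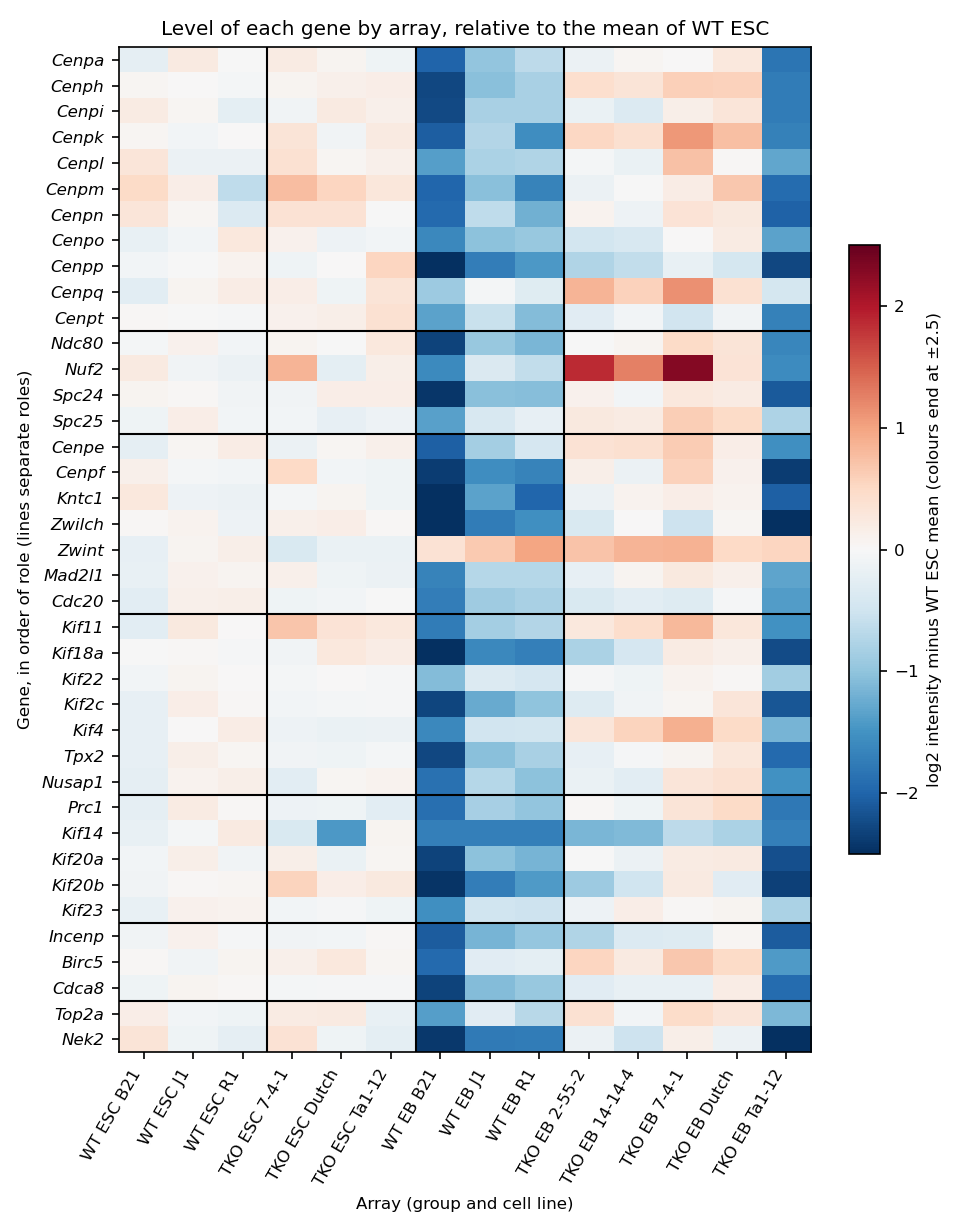
Log2 intensity of the 39 genes tested (rows, grouped by role) on each of the 14 arrays (columns), shown as the difference from the mean of the 3 WT ESC arrays, with red for higher and blue for lower. The 3 WT EB columns and the TKO EB Ta1-12 column are blue in nearly every row, with medians of -1.98, -0.89, -0.94 and -1.72, the other 4 TKO EB columns have medians between -0.12 and 0.22, and Zwint is red in all 8 EB columns.

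The promoters were then searched, since CHR elements are known from promoters of many such genes. RefSeq (GRCm38.p6) windows of 300 bases, 250 before and 50 after the transcription start, were matched by symbol for 35 of the 40 genes (38 windows); Spc24, Zwilch, Tpx2, Kif20a and Incenp had none. 3 kinds of words were sought on both strands: the CHR word TTTGAA, the CCAAT box word CCAAT, and the E2F words TTTGGCGC, TTTCCCGC, TTTGCCGC and TTTCGCGC. The 250 bases before the start are shown for the 4 genes with the largest fall in WT EB among those with a window. They are also shown for the pair with the smallest change. Fall and change are those of the brightest probe set. Capitals mark matches on either strand, and adjoining or overlapping matches run together.
Kif18a, chr2:109280488-109280737, plus strand: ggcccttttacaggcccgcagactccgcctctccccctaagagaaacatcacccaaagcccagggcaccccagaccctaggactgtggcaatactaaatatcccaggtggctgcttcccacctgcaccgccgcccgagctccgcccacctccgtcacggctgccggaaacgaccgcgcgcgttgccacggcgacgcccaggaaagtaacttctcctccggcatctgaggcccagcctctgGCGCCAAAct
Kntc1, chr5:123749476-123749725, plus strand: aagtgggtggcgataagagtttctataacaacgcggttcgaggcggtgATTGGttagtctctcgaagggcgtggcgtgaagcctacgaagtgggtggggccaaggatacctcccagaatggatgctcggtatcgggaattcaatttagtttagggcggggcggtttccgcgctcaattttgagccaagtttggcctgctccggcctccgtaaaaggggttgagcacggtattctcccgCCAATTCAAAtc
Nek2, chr1:191821223-191821472, plus strand: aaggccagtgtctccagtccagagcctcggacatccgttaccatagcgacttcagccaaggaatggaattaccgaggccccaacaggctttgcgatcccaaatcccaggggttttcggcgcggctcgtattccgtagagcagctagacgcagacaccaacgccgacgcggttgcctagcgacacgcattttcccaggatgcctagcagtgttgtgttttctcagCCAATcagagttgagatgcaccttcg
Cenpp, chr13:49652732-49652981, minus strand: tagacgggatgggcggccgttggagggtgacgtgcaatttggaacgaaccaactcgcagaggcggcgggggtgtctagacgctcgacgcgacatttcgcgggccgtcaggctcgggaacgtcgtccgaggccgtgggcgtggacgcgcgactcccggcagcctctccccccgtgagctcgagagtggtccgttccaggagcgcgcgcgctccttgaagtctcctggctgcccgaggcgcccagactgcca
Cenpq, chr17:40934575-40934824, minus strand: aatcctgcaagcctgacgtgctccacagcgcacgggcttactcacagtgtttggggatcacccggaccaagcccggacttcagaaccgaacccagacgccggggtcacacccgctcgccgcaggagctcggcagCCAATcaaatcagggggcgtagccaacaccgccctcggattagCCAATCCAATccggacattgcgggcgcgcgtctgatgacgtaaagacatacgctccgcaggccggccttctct
Kif22, chr7:127042421-127042670, minus strand: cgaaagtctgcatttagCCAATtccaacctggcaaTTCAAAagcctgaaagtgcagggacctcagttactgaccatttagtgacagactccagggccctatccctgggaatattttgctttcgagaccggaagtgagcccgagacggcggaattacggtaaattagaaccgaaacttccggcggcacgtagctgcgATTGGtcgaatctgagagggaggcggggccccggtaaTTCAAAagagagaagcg
Kntc1 has a CCAAT box overlapping a CHR word by 1 base just upstream of its start. Kif18a has only an E2F word there, Nek2 only a CCAAT box, and Cenpp no match. Kif22, with a small change in its brightest probe set, has a pair of CHR words and a pair of CCAAT boxes. Cenpq has 3 CCAAT boxes and no CHR word. The place of Kif22 rests on the choice of probe set. A dimmer Kif22 probe set gave -1.95 ± 0.55 in WT EB (adjusted p = 0.0136 by limma), near the largest falls. The remaining one that passed the filter was also called lower (adjusted p = 0.0106 by limma). No kind of word was common to all 4 genes with the largest fall, though Kntc1 and Nek2 both hold a CCAAT box. Whether these words sort genes by the size of their fall cannot be read from the 6 genes shown.

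The CHR word was in 20 of the 38 windows (52.6%), and in 13.4% of 18089 windows of genes on the array. The CCAAT box was in 26 windows (68.4%, against 37.3%) and an E2F word in 4 (10.5%, against 3.21%). A CHR word and a CCAAT box were both present for 15 genes, among them Cdc20, Kif23, Prc1, Top2a and Cenpf, and 7 genes had no match, among them Birc5, Mad2l1 and Nuf2. Both Prc1 windows overlap and hold the same words. Of 23 distinct CHR words, 17 began within 30 bases of a start. Among the genes tested, the median log2 change in WT EB was -1.22 with a CHR word (18 genes, 11 called lower) and -1.2 without one (16 genes, 9 called lower). A match is a word in the sequence and not a bound site, and its absence from this window says nothing about the factor.

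The inner kinetochore was represented by Cenpa, the histone H3 variant that marks centromeric nucleosomes, and by 10 CENP proteins built onto it. Of these 11 genes, 5 fell in WT EB and 0 rose. Cenpp, a subunit of the CENP-O group, showed the smallest adjusted p. Its intensity was 1301, 1361 and 1453 in WT ESC and 216, 412 and 509 in WT EB. In TKO cells it was 1270.0, 1371 and 1979 in ESC and 812, 892, 1211, 1015 and 283 in EB. All EB arrays were thus below the ESC arrays of the same genotype, and TKO EB Ta1-12 was the sole TKO EB array among the WT EB values. The log2 change was -1.94 ± 0.46 (adjusted p = 0.00558) in WT, a 3.84-fold fall, and -0.99 ± 0.41 (adjusted p = 0.0782) in TKO. Cenpq, another subunit of the same group, stood at the other end. It measured 1159, 1447 and 1577 in WT ESC and 739.7, 1346 and 1117 in WT EB, then 1549.9, 1285 and 1740.5 in TKO ESC and 2482, 2061, 3050.2, 1805 and 1019 in TKO EB. WT EB J1 reached into the WT ESC range, and 4 of 5 TKO EB arrays were above every TKO ESC array. Its log2 change was -0.42 ± 0.34 (adjusted p = 0.339) in WT and 0.37 ± 0.31 (adjusted p = 0.365) in TKO, so neither passed.

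The other inner kinetochore calls were Cenpo with -1.20 ± 0.34 (adjusted p = 0.0129), Cenpm with -1.57 ± 0.54 (adjusted p = 0.032), Cenpt, which links DNA to the NDC80 complex, with -1.0 ± 0.35 (adjusted p = 0.0344), and Cenpi with -1.29 ± 0.49 (adjusted p = 0.0459). The 5 other genes between these and Cenpq did not pass: Cenpa (-1.21, adjusted p = 0.0504), Cenpk (-1.45, 0.0529), Cenph (-1.37, 0.0531), Cenpl (-0.97, 0.0583) and Cenpn (-1.26, 0.066). With the cell line as a block, which pairs the ESC and EB arrays of a line, Cenpa passed (adjusted p = 0.0444) while Cenpi (0.0896) and Cenpt (0.0648) did not. In TKO the median log2 change of the 11 genes was -0.39 and 0 were called, with values from -0.99 (Cenpp) to 0.37 (Cenpq).

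The NDC80 complex, the microtubule-gripping unit of the outer kinetochore, has 4 subunits and all were tested. Of these, 2 fell in WT EB: Ndc80, with -1.47 ± 0.47 (adjusted p = 0.025), and Spc24, with -1.51 ± 0.54 (adjusted p = 0.0367). Ndc80 intensity was 955, 1065 and 946 in WT ESC and 199, 514 and 446 in WT EB. It was 1029.5, 986 and 1188 in TKO ESC and 983, 1031, 1379, 1226 and 320.1 in TKO EB. All WT EB arrays were below all ESC arrays, whereas 4 of the 5 TKO EB arrays were inside the ESC range or above it and Ta1-12 was far below. With the line as a block both calls were lost (adjusted p = 0.0567 for Ndc80 and 0.0659 for Spc24).

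Nuf2, the direct partner of Ndc80, had the largest adjusted p of the complex. It measured 828, 665 and 641 in WT ESC and 235, 547 and 460.0 in WT EB. TKO ESC had 1279.9, 597 and 784 and TKO EB had 2587, 1687, 3464, 898 and 238. The TKO EB arrays were far apart: 7-4-1, 2-55-2 and 14-14-4 were above every ESC array, Dutch was inside the ESC range, and Ta1-12 was next to the lowest WT EB array. The log2 change was -0.86 ± 0.77 (adjusted p = 0.378) in WT and 0.58 ± 0.69 (adjusted p = 0.529) in TKO. Spc25 had -0.65 ± 0.33 (adjusted p = 0.128) in WT and 0.28 ± 0.30 (adjusted p = 0.48) in TKO. The median of the complex in TKO was 0.01.

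In the corona and spindle checkpoint, 5 of 7 genes fell in WT EB and 1 rose. Kntc1 and Zwilch, partners in the complex that brings dynein to kinetochores, gave -1.98 ± 0.50 (adjusted p = 0.0075) and -1.99 ± 0.53 (adjusted p = 0.00953). Cenpf, a large protein of the corona, gave -1.87 ± 0.57 (adjusted p = 0.0188), Cdc20, the activator of the anaphase-promoting complex, gave -1.14 ± 0.31 (adjusted p = 0.0106), and Mad2l1, which holds Cdc20 inactive until attachment, gave -1.04 ± 0.36 (adjusted p = 0.0321). Cenpe, a kinesin that carries chromosomes to the spindle equator, did not pass. Its intensity was 1269, 1549 and 1689.8 in WT ESC and 363, 825 and 1114 in WT EB. The TKO arrays read 1349.8, 1540.5 and 1638 at the ESC stage and 1919, 1967, 2325, 1678 and 516 at the EB stage. The WT EB arrays were all below the ESC arrays, but B21 was far below the other lines, and 4 TKO EB arrays were above every TKO ESC array. The log2 change of Cenpe was -1.11 ± 0.50 (adjusted p = 0.0912) in WT and 0.00 ± 0.45 (adjusted p = 0.995) in TKO.

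Zwint, which joins the outer kinetochore to the corona complex, went the other way in both genotypes. It measured 2714, 3279 and 3475 in WT ESC and 4014, 4913 and 6254 in WT EB. For TKO the ESC values were 2423, 2795 and 2804 and the EB values 5169.6, 5625, 5739, 4429.9 and 4538. Every EB array was above every ESC array, Ta1-12 included. Zwint rose by 0.67 ± 0.17 (adjusted p = 0.00715) in WT and by 0.93 ± 0.15 (adjusted p = 0.000727) in TKO. The rise rests on the choice of probe set: 6 Zwint probe sets passed the filter, with log2 changes in WT EB of 0.67, 0.58, 0.04, -0.21, -0.41 and -0.55. With the mean of all its probe sets the change was 0.02 (adjusted p = 0.946) in WT and 0.35 (adjusted p = 0.112) in TKO, so no direction for the gene as a whole is given.

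Among spindle and chromosome motors and microtubule binders, 5 of the 7 genes tested fell in WT EB. Kif18a, a kinesin that shortens the microtubules at kinetochores, gave the smallest adjusted p. It measured 2170.2, 2239.6 and 2148 in WT ESC and 352, 719 and 668 in WT EB. In TKO it was 2047, 2635 and 2500.2 in ESC and 1258, 1627, 2527, 2381 and 461 in EB. WT EB and Ta1-12 EB lay below every other array while 7-4-1 and Dutch EB stayed inside the TKO ESC range, with 14-14-4 and 2-55-2 between. The log2 change of Kif18a was -1.98 ± 0.51 (adjusted p = 0.00793) in WT, a 3.95-fold fall, and -0.75 ± 0.45 (adjusted p = 0.215) in TKO. Kif4, a chromosome-arm motor, had the largest adjusted p of the role. Its intensity was 680.2, 782 and 891 in WT ESC and 253, 556 and 569 in WT EB, then 709.8, 695 and 706 in TKO ESC and 967, 1146, 1440.3, 1092 and 350.1 in TKO EB. The WT EB arrays were all below the WT ESC arrays, and 4 TKO EB arrays were above every ESC array. The log2 change was -0.85 ± 0.45 (adjusted p = 0.136) in WT and 0.36 ± 0.40 (adjusted p = 0.499) in TKO.

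The other falls in this role were Kif2c, a microtubule depolymerase at centromeres, with -1.52 ± 0.51 (adjusted p = 0.0291), Nusap1, a spindle bundling protein, with -1.20 ± 0.41 (adjusted p = 0.0323), Tpx2, which activates Aurora A on the spindle, with -1.37 ± 0.50 (adjusted p = 0.0397), and Kif22, a DNA-binding motor, with -0.61 ± 0.23 (adjusted p = 0.0456). With the line as a block Nusap1 (0.0571), Tpx2 (0.0545) and Kif22 (0.0625) did not pass. Kif11, the motor that pushes spindle poles apart, had -1.11 ± 0.47 (adjusted p = 0.0731). Tpx2 was the single gene with called probe sets in opposite directions, since a dimmer probe set rose by 0.90 ± 0.27 (adjusted p = 0.0181) in WT EB. In TKO the median of the 7 genes was -0.28, with 0 called.

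All 5 genes of the central spindle and cytokinesis fell in WT EB. Kif14, a kinesin needed late in cytokinesis, had the smallest adjusted p, with a signal near the floor. It measured 92.5, 102 and 123 in WT ESC and 6.9, 22.5 and 31.6 in WT EB. TKO ESC had 80.8, 38.8 and 110.0 and TKO EB had 47.9, 48.8, 66.7, 60.5 and 19.1. All WT EB arrays and TKO EB Ta1-12 were under the floor of 32 that was set before taking log2, while the other 4 TKO EB arrays were above it. The log2 change of -1.72 ± 0.35 (adjusted p = 0.00259) in WT is therefore understated, and it was -0.50 ± 0.32 (adjusted p = 0.237) in TKO. The floor also left no spread among the WT EB arrays, so the standard error and p-value of Kif14 are partly set by it.

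Prc1, which crosslinks the microtubules of the central spindle, had the largest adjusted p of this role. Its intensity was 2966, 4027 and 3546 in WT ESC and 945, 1966 and 1750.1 in WT EB. The TKO arrays read 3198, 3256 and 2908 at the ESC stage and 3564, 3247, 4368, 4846 and 1009 at the EB stage. WT EB did not overlap WT ESC, and 3 TKO EB arrays were above every TKO ESC array, with 14-14-4 inside that range and Ta1-12 far below. Prc1 changed by -1.23 ± 0.47 (adjusted p = 0.0487) in WT and had -0.05 ± 0.42 (adjusted p = 0.936) in TKO. Kif20b, Kif20a and Kif23, motors of the midzone, gave -1.86 ± 0.49 (adjusted p = 0.00936), -1.49 ± 0.53 (adjusted p = 0.0378) and -0.85 ± 0.28 (adjusted p = 0.0271) in WT. With the line as a block Prc1 (0.0521) and Kif20a (0.0581) did not pass. Kif20b had the largest negative value of all 39 genes in TKO, -1.09 ± 0.44 (adjusted p = 0.0698).

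Of the chromosomal passenger complex, which senses tension at centromeres and later moves to the midzone, 2 of 3 genes fell in WT EB. Incenp, its scaffold, measured 5176, 5959 and 5412 in WT ESC and 1294, 2447 and 2818 in WT EB. For TKO the ESC values were 5146, 5234 and 5639 and the EB values 3272, 4364, 4411, 5667 and 1309.5. Every WT EB array was under every ESC array, and of the TKO EB arrays only Dutch reached the ESC range. Incenp gave -1.41 ± 0.43 (adjusted p = 0.0194) in WT and -0.64 ± 0.39 (adjusted p = 0.213) in TKO. Cdca8, which encodes borealin, gave -1.45 ± 0.46 (adjusted p = 0.0225) in WT. Birc5, which encodes survivin, measured 4694, 4369 and 4824 in WT ESC and 1207, 3780.3 and 3922 in WT EB, then 5025, 5515 and 4780.5 in TKO ESC and 6691, 5419.9, 7377, 6464 and 1737 in TKO EB. In WT the low value of B21 set the EB group apart, with J1 and R1 closer to ESC. Its log2 change was -0.82 ± 0.51 (adjusted p = 0.204) in WT and -0.04 ± 0.46 (adjusted p = 0.954) in TKO.

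Nek2, a kinase that splits the centrosome pair, and Top2a, the topoisomerase that untangles sister chromatids, complete the genes. Nek2 intensity was 4883, 3630.0 and 3335 in WT ESC and 733, 1138 and 1155 in WT EB. In TKO it was 4991, 3634 and 3300.3 in ESC and 3517, 2724, 4291, 3541 and 666 in EB. The WT EB arrays and Ta1-12 EB were far below all other arrays. Nek2 fell by 1.98 ± 0.54 (adjusted p = 0.0109) in WT, and had -0.65 ± 0.48 (adjusted p = 0.313) in TKO. Top2a measured 12155, 10376 and 10129.9 in WT ESC and 4203, 8861 and 6728 in WT EB, then 12489, 12651 and 9502 in TKO ESC and 14092, 10418, 14916, 13327 and 5014 in TKO EB. WT EB did not overlap WT ESC, yet the log2 change of -0.78 ± 0.36 (adjusted p = 0.0928) did not pass, and in TKO it was -0.09 ± 0.32 (adjusted p = 0.854). This rests on the choice of probe set. A dimmer Top2a probe set passed by limma in WT, with -2.65 ± 0.61 (adjusted p = 0.00471). It also passed in TKO, with -1.63 ± 0.54 (adjusted p = 0.0335).

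The 6 lines measured at both stages allow the change to be read within each line. The median log2 change (EB minus ESC) of the 39 genes was -1.96 in B21, -1.03 in J1 and -0.96 in R1, and in each of these WT lines 38 genes were lower in EB and Zwint was higher. It was 0.13 in 7-4-1, with 13 genes lower and 26 higher, and 0.18 in Dutch, with 9 lower and 30 higher. In the line labelled TKO Ta1-12 it was -1.88, with 38 lower, which is nearer to the WT line B21 than to the other TKO lines. The medians over all genes were between 0.05 and 0.17 in the 6 lines. Across 7-4-1 and Dutch, 23 genes were higher in EB in both and 6 were lower in both. Nuf2 was 1.44 in 7-4-1 and 0.59 in Dutch, and Kif20b was lower in both, at -0.35 and -0.46. A line is 1 array at each stage, so these within-line values have no error of their own.

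**Figure D2:**
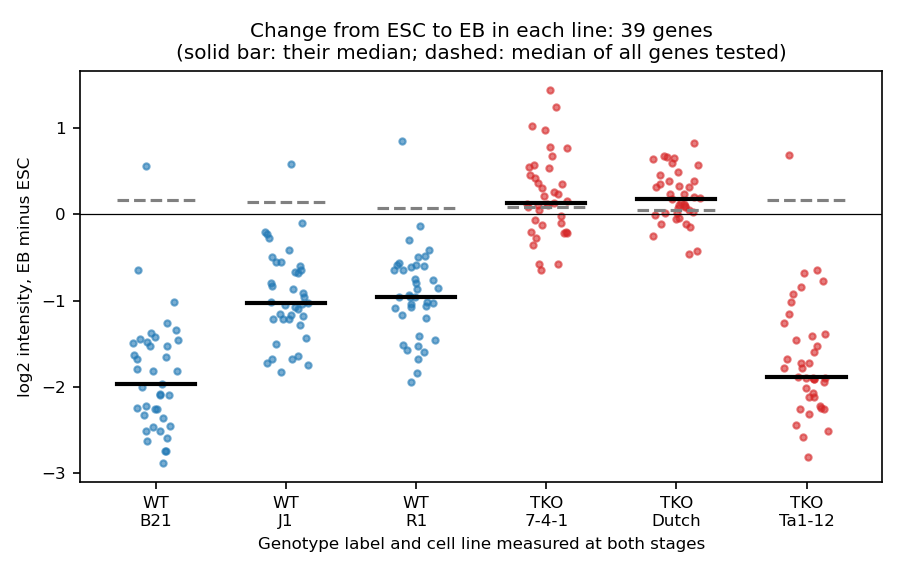
Change in log2 intensity from ESC to EB (vertical axis) of each of the 39 genes (points) in the 6 lines measured at both stages, with WT in blue and TKO in red, the median of the 39 genes as a solid bar and the median of all genes tested as a dashed bar. The clouds of B21, J1, R1 and Ta1-12 lie almost wholly below 0 (medians -1.96, -1.03, -0.96 and -1.88), and those of 7-4-1 and Dutch lie around or just above it (0.13 and 0.18).

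In undifferentiated cells no difference between the genotypes passed the test. In TKO ESC against WT ESC, 0 of 39 genes passed by limma and 0 had an unadjusted p under 0.05, while 2.74% of all genes had one, in either direction. The median log2 difference was 0.06 and single genes ran from -0.58 (Kif14) to 0.54 (Cenpm), with standard errors of 0.17 (Zwint) to 0.77 (Nuf2). Differences of the size of these errors were not detectable with these arrays.

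In EB the signal of these genes was higher in the TKO group in the mean but not in every line. With all 5 TKO EB arrays against 3 WT EB arrays, the log2 difference was positive for all 39 genes, with a median of 1.01 (0.03 to 1.70) against -0.10 over all genes. By limma 0 genes passed (the lowest adjusted p of the 39 was 0.303, and 0 of all genes tested passed), while 30 of 39 were higher at an unadjusted p under 0.05, as were 4.48% of all genes. These EB comparisons and the stage comparisons share arrays and are not separate evidence. The array labelled TKO EB Ta1-12 was the lowest TKO EB array for 38 of the 39 genes, and it was within the WT EB range for 36 and below it for 3.

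Without the arrays of line Ta1-12, 37 of 39 genes were higher in the 4 TKO EB arrays than in WT EB, with adjusted p between 0.00212 and 0.0437 by limma, where 2.7% of all genes were higher. Since TKO EB Ta1-12 was the lowest array of its group for 38 of the 39 genes, all but Zwint, leaving it out raises the difference by construction. It also lowers the spread within TKO EB, and standard errors were smaller for all genes but Zwint. The adjusted p-values without Ta1-12 therefore describe a subset chosen with values known, and are no independent test. The median log2 difference was then 1.41 (0.07 to 2.30). For 38 of the 39 genes, all but Zwint, all 4 remaining TKO EB arrays were above all 3 WT EB arrays, as for 6.13% of all genes. Zwint, with 0.07 ± 0.16 (adjusted p = 0.831), and Kif14, with 0.79 ± 0.26 (adjusted p = 0.0864), did not pass. The difference between the stage changes, taken over the same arrays, had a median of 1.37, with 0 genes called and 37 at an unadjusted p under 0.05, against 3.54% of all genes in this direction. The stage change within TKO then had a median of 0.04, beside 0.05 over all genes. In it 0 of the 39 genes were lower and Zwint was higher, where 1207 of all 14365 genes were lower and 1861 higher.

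The values by role that follow leave out Ta1-12, so their adjusted p-values carry the limit just given. With all 5 TKO EB arrays 0 of these genes passed. All 11 inner kinetochore genes were higher in TKO EB, from Cenpt with 0.76 ± 0.18 (adjusted p = 0.0275) to Cenpk, a subunit of the CENP-H group, with 2.13 ± 0.28 (adjusted p = 0.00481). All 4 NDC80 subunits were higher, with Nuf2 at 2.30 ± 0.46 (adjusted p = 0.0173) and Spc25 at 1.03 ± 0.24 (adjusted p = 0.0266). In the corona and checkpoint 6 of 7 were higher, led by Cenpf with 2.04 ± 0.23 (adjusted p = 0.00212) and Kntc1 with 2.03 ± 0.26 (adjusted p = 0.00371). All 7 motors and microtubule binders were higher, from Kif22 with 0.61 ± 0.15 (adjusted p = 0.0346) to Kif18a with 1.76 ± 0.29 (adjusted p = 0.0102). In the central spindle 4 of 5 were higher, Kif20a with 1.56 ± 0.27 (adjusted p = 0.0108) and Kif23 with 0.89 ± 0.23 (adjusted p = 0.0387) among them. All 3 passenger genes were higher, with Cdca8 at 1.33 ± 0.27 (adjusted p = 0.0181), Birc5 at 1.30 ± 0.33 (adjusted p = 0.0399) and Incenp at 1.07 ± 0.25 (adjusted p = 0.0291). Nek2 had 1.81 ± 0.22 (adjusted p = 0.00307) and Top2a 1.05 ± 0.21 (adjusted p = 0.0173).

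**Figure D3:**
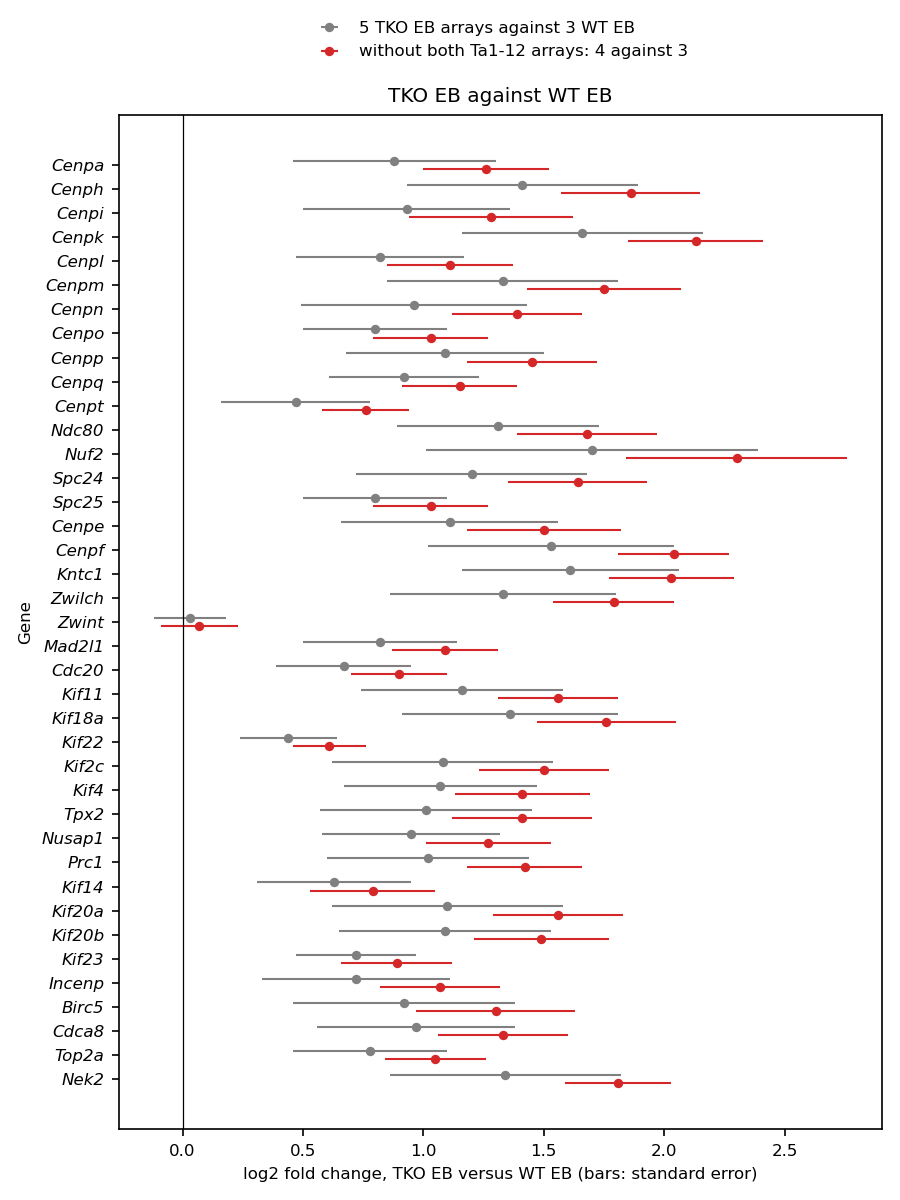
Log2 fold change of TKO EB against WT EB (horizontal axis, points with standard errors) for each of the 39 genes (rows), in grey with all 5 TKO EB arrays and in red without both Ta1-12 arrays. Every point is right of 0, the red points lie further right than the grey ones (medians 1.41 and 1.01) with shorter bars for all genes but Zwint, and Zwint alone is close to 0.

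The TKO EB lines also differed in other markers, and these are given beside the result. The summed intensity of 10 pluripotency markers was 18679, 61645, 10859, 75708 and 10059 in TKO EB. It ranged from 5525 to 11973 over WT EB and from 75227 to 104049.6 over the ESC arrays. The sum of Dutch was thus inside the ESC range, near its lower end, and 14-14-4 came nearest below that range. Of the 10 markers, 4 were at or under the floor in Ta1-12, 1 or 2 in each WT EB array and 0 in the other TKO EB arrays. Line 7-4-1 had a marker sum inside the WT EB range, but its Pou5f1, at 147, was above the 32.8 to 55.2 of WT EB. Its median for the 39 genes was 0.22 relative to the WT ESC mean, with 38 above the WT EB range. The part of the pluripotency markers in the result was not tested.

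Markers of differentiated cells moved as well. The sum of 8 mesenchyme markers ranged from 719 to 1016 over WT ESC and from 91141 to 105429.9 over WT EB, and it was 79908, 55664, 110084, 26628 and 88812 in TKO EB. Visceral endoderm markers (6 genes) summed to 15259 to 39729.8 over WT EB and to 5379.6 to 47696 over TKO EB, with Ta1-12 the highest. Cardiac muscle markers (6 genes) summed to 6707 to 37378 over WT EB and to 612 to 46856 over TKO EB, and neural markers (6 genes) to 1387 to 4002 and 642 to 13692. Their part in the result was not tested.

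**Figure D4:**
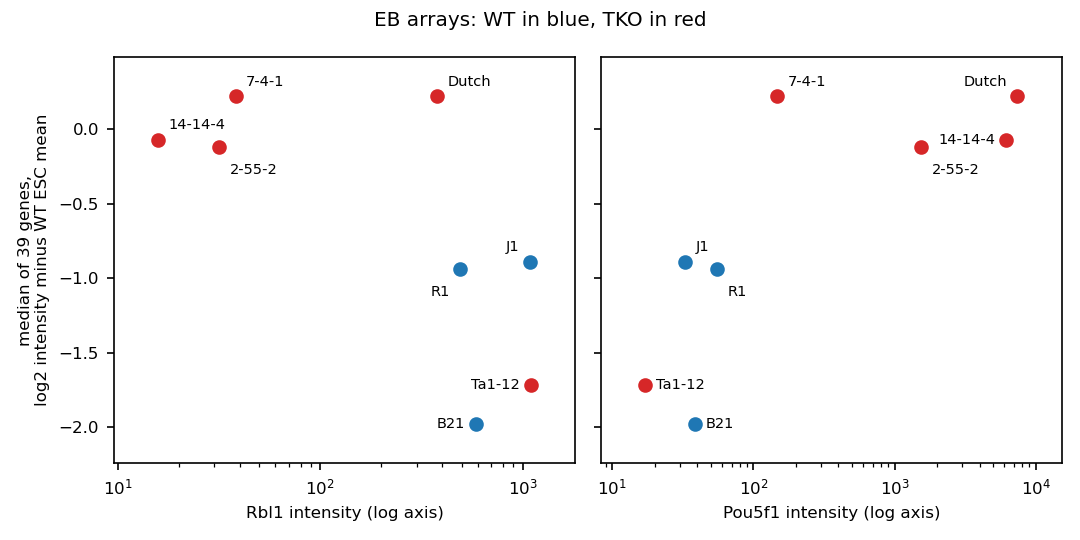
Median log2 intensity of the 39 genes relative to the WT ESC mean (vertical axis) on the 8 EB arrays, against the intensity of Rbl1 (left, log axis) and of Pou5f1 (right, log axis), with WT in blue and TKO in red. The 4 TKO arrays near 0 hold Rbl1 intensities of 15.9 to 377, below all WT EB arrays. Ta1-12 has a median of -1.72, within the WT EB medians. Its Rbl1 intensity of 1096 is just above all WT EB arrays, and its Pou5f1 intensity of 17.1 is below them.

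Genes of the same processes outside the 40 were taken from lists of known function. Of 21 other kinetochore and centromere genes tested, 11 fell and 1 rose in WT EB, where 17.4% of all genes fell and 26.2% rose, with a median log2 change of -1.17. Cenps, an inner kinetochore subunit, fell by 1.75 ± 0.34 (adjusted p = 0.00202) and Ska1, part of the ring that couples NDC80 to microtubules, fell by 2.01 ± 0.51 (adjusted p = 0.00803), while Cenpb, which binds the centromeric repeat, rose by 1.97 ± 0.41 (adjusted p = 0.00271). In TKO, where 14.9% of all genes fell and 20.8% rose, the same list had 1 fall, Cenps with -1.27 ± 0.31 (adjusted p = 0.00693), and 2 rises, Ska2 with 1.22 ± 0.34 (adjusted p = 0.0147) and Cenpb with 1.24 ± 0.37 (adjusted p = 0.0193).

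Of 20 other spindle and cytokinesis genes, 9 fell in WT EB and 0 rose, against the same 17.4% and 26.2% of all genes, with a median of -1.06. Kifc1, a minus-end motor, had -1.66 ± 0.41 (adjusted p = 0.00648), Ect2, the exchange factor that starts furrowing, had -1.56 ± 0.39 (adjusted p = 0.0069), and Espl1, which encodes separase, had -2.25 ± 0.57 (adjusted p = 0.00752). In TKO, against 14.9% and 20.8%, 0 fell and Numa1, a spindle pole protein, rose by 0.42 ± 0.11 (adjusted p = 0.0131). Of 13 cohesin and condensin genes, 3 fell in WT EB and 0 rose, with a median of -0.44, and a share of falls near the 17.4% of all genes is no result about this list. The 3 were Ncapd3 (-1.39 ± 0.32, adjusted p = 0.00431), Smc3 (-0.51 ± 0.13, adjusted p = 0.00845) and Ncapg (-1.62 ± 0.47, adjusted p = 0.0154). In TKO 0 fell and 1 rose, Stag2 with 1.11 ± 0.22 (adjusted p = 0.00236). With all 5 TKO EB arrays 0 genes of these 3 lists passed against WT EB, and without Ta1-12 12 of 21, 14 of 20 and 7 of 13 were higher, as were 2.7% of all genes.

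Of 16 genes that encode regulators of such promoters, 3 fell in WT EB and 1, Rbl2, rose (1.26 ± 0.47, adjusted p = 0.0462). With 17.4% of all genes lower and 26.2% higher, these counts are no result about the list. Those that fell were Mybl2, which encodes the B-Myb activator of mitotic genes (-4.27 ± 0.82, adjusted p = 0.00182), the DREAM subunit E2f4 (-1.03 ± 0.18, adjusted p = 0.00126) and Nfyb, a subunit of the CCAAT-binding factor (-1.28 ± 0.27, adjusted p = 0.00306). The same 3 genes fell in TKO EB against TKO ESC (14.9% of all genes fell), with -2.49 ± 0.73 (adjusted p = 0.0192) for Mybl2, -1.41 ± 0.17 (adjusted p = 0.000114) for E2f4 and -0.67 ± 0.24 (adjusted p = 0.0469) for Nfyb. Without Ta1-12, Foxm1 (1.36 ± 0.32, adjusted p = 0.0284), Lin9 (1.12 ± 0.29, adjusted p = 0.0398) and Lin54 (0.96 ± 0.26, adjusted p = 0.0483) were higher in TKO EB than in WT EB, and Rbl2 was lower (-1.61 ± 0.38, adjusted p = 0.0309), where 2.7% of all genes were higher and 4.96% lower. Rbl1 is not read in this comparison, since Ta1-12 was set apart for its Rbl1 signal. With all 5 TKO EB arrays 0 of the 16 passed. Foxm1 measured 147, 257 and 244 in WT EB and 525, 499, 833, 389.8 and 147 in TKO EB, with Ta1-12 again at the WT level. Mybl2 measured 109.6, 199 and 775 in WT EB and 635, 2536, 589.7, 3493 and 357 in TKO EB. Lines 7-4-1 and 2-55-2 were inside the WT EB range of Mybl2 only because of R1, and were above B21 and J1. In each of 7-4-1 and 2-55-2, 38 of the 39 segregation genes, all but Zwint, were above their own WT EB range. The part of Mybl2 in the signal of these genes was not tested.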

How the data were processed

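Values were the linear intensity of 45101 probe sets on each of 14 Affymetrix arrays, deposited by the authors in 1 series table. The background correction, scaling and probe summary behind them were not given in the sources used here. Total RNA was taken up in Trizol and labelled with biotin, per the labels' protocols. Intensities under 32 were set to 32 before log2, with no further scaling, because array medians lay between 83.2 and 107.9. A probe set was named where the platform annotation gave it 1 symbol (34958 probe sets, with 932 having several and 9211 none), and the brightest stood for its gene. Genes above the 40th percentile of an array on at least 3 arrays were tested (14365). Group means over all 14 arrays were fitted in limma 3.58.1 (R 4.3.3, eBayes with trend), errors are standard errors of that fit, and Benjamini-Hochberg adjustment ran over all genes within each of 5 comparisons. The procedure was tested on simulated data.

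The genes, roles and lists were chosen with earlier results of these data known. Every gene is named, and array values are given for the genes with the smallest and largest adjusted p per role in WT EB against WT ESC. Lines measured at both stages pair the arrays by the cell line in the titles. Deviations from the group mean correlated across genes between the ESC and EB arrays of a line at -0.046 (B21), -0.078 (J1), -0.037 (R1), 0.066 (7-4-1), 0.196 (Dutch) and 0.090 (Ta1-12). Alternatives were quantile normalization, floors of 16 and 64, no filter, the mean of all probe sets, own groups only, the line as a fixed or random block, array weights, and arrays left out. No pair of arrays held identical values for more than 0.379% of probe sets. The number of arrays limits the precision.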

Additional observations from a re-analysis of the deposited data

Results flagged for a closer look

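For 24 of the 39 genes the array labelled TKO EB Ta1-12 lay apart from the other 4 TKO EB arrays, on the low side, by more of the group's range than Dixon's 95% critical value allows. Chance flags about 1 in 20 groups, and the flags are not independent, since they all come from this array. Its median over the 39 genes, relative to the WT ESC mean, was flagged too, at -1.72. The flagged intensities in the inner kinetochore were 1620.6 (Cenpa), 470.5 (Cenph), 417 (Cenpk), 600.4 (Cenpn), 283 (Cenpp) and 1009.9 (Cenpt), and in the NDC80 complex 320.1 (Ndc80) and 635 (Spc24). In the corona and checkpoint they were 516 (Cenpe), 728 (Cenpf), 391 (Kntc1), 722 (Zwilch), 2259 (Mad2l1) and 4298.5 (Cdc20). Among motors and microtubule binders they were 957 (Kif11), 4453 (Kif22), 635 (Kif2c), 350.1 (Kif4) and 883 (Tpx2). The others were 1009.3 (Prc1), 680.0 (Kif20a), 1737 (Birc5), 1671 (Cdca8) and 665.5 (Nek2).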

How the results depend on the processing

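No named call turned its direction under any alternative run. In WT EB against WT ESC, 26 of the 39 genes were called, 15 with no filter on low values, and 8 to 36 with 1 array left out (8 without WT EB B21, 36 without TKO EB Ta1-12). Calls over all genes moved as well. Of 14365 genes 2493 were lower and 3767 higher, and with no filter 2445 and 3589 of 18194. Without WT EB B21 1753 were lower and 2836 higher, and without TKO EB Ta1-12 2671 and 4105. In TKO EB against TKO ESC the count of 1 (higher) became 2 with the mean of all probe sets (0 higher, 2 lower), 5 with array weights (1 higher, 4 lower: Cenpp, Cenpt, Kif18a and Kif20b), 2 without TKO EB Dutch and 14-14-4 (1 higher, 1 lower: Cenpt), and 1 to 2 with 1 array left out. In TKO EB against WT EB the count of 0 became 37 without both Ta1-12 arrays and ran from 0 to 37 with 1 array left out, and for the difference of stage changes it ran from 0 to 1, each highest without TKO EB Ta1-12. Among all genes 388 were higher and 713 lower in TKO EB against WT EB without both Ta1-12 arrays. Those counts were 480 and 942 without TKO EB Ta1-12 alone. Without TKO EB Dutch and 14-14-4 the count for TKO EB against WT EB stayed at 0, with a median log2 difference of 0.76. The line as a fixed replicate block gave 18 calls in WT (17 lower, 1 higher), changed no call in TKO, and could not be fitted for TKO against WT. The random block gave 28 lower and 1 higher (consensus correlation 0.032). Among all genes in WT, 2085 were lower and 3284 higher with the fixed block, and 2559 and 3853 with the random block. Quantile normalization moved the median of all genes in WT from 0.13 to -0.07 and that of the 39 genes from -1.26 to -1.49. With the mean of all probe sets, Nek2 (-0.87, adjusted p = 0.0583), Prc1, Tpx2 and Zwint lost their call in WT. Over all alternatives, single genes called in WT kept their call in 540 cases and lost it in 110. Leaving out an array of a group of 3 leaves 2, and a fit on the groups of the comparison alone is the same as the full fit for the difference.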
